A study of Mus musculus with 12 samples.

Results

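The genes described here are the mouse zinc finger genes whose symbols begin with Zfp and go on with a number only. RNA had been sequenced from hand-picked pancreatic islets, in 4 groups of 3 libraries. The knockout groups, female and male, carried floxed Rnf20 and a tamoxifen-inducible Cre driven by the Pdx1 promoter (Rnf20 F/F; Pdx1 Cre ER), and the control groups, female and male, were labelled Rnf20 Flox Control, with no Cre named. All mice, controls included, had received 5 gavages of tamoxifen at 150 ug per g of body weight, given at the age of 4 weeks. Rnf20 encodes the ubiquitin ligase that, with Rnf40, attaches ubiquitin to histone H2B in transcribed genes. Because the controls name no Cre, an effect of the Cre transgene cannot be told apart from one of the deletion. Pdx1 is active in beta cells and in some delta cells, but no measurement here shows in which cells Rnf20 was deleted. The comparison of knockout with control asks which transcripts differ when Rnf20 is deleted with this Cre, and it was made in each sex.

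The genes were chosen by their symbol, by being protein-coding and by their measured level, at least 300 normalized counts on average over the 6 libraries of each sex. A normalized count is a read count divided by 1 size factor per library. The limit was met by 209 of the 349 protein-coding genes with such a symbol, out of 23104 genes measured in both sexes. The limit was set on the mean over knockout and control libraries together, not on their difference. The 3 members just inside the limit were Zfp560, Zfp503 and Zfp101, whose lower sex mean was 302, 306 and 319 normalized counts. Just outside it lay Zfp867, Zfp472 and Zfp605, with 296, 295 and 289.1.

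Most of these genes encode proteins with a row of C2H2 zinc fingers, in which paired cysteines and histidines hold a zinc ion and the finger between them contacts DNA. Many also carry a Krüppel-associated box (KRAB), whose A part recruits the corepressor Trim28 and, through it, the histone methyltransferase Setdb1, heterochromatin proteins and the Chd4 complex. The KRAB members arose by repeated local duplication and lie in clusters, and a well-studied task of theirs is the silencing of transposable elements. Other members do other work, among them messenger RNA decay, ribosome quality control, telomere upkeep and the maintenance of imprints.

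A protein could be translated for 208 members, all but Zfp469. At least 1 match to the C2H2 finger pattern was present in 202 of them, with a median of 10 fingers and a maximum of 36, in Zfp142. The 6 with no match were Zfp36, Zfp330, Zfp365, Zfp503, Zfp703 and Zfp839, so for these the name is not borne out by the classical pattern. A match to the KRAB A box was present in 96 members, called A box members from here on, and absent from 112. The A box members had a median of 12 fingers and the others of 7. A missing match does not show that a protein lacks the box: Zfp92, which is known as a KRAB protein, had none.

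The coding DNA of the A box is shown for 3 members that were lower in female knockouts, since this class made up most of the falls in females. Capitals mark the codons that matched the pattern, which are at the end of the box in all 3 and also at its start in Zfp948. The coordinates are of GRCm38, and each box spans the junction of 2 exons (Zfp9 chr6:118467252-118477309, minus strand, exons 2 and 3; Zfp568 chr7:29989105-29997863, plus strand, exons 4 and 5; Zfp948 chr17:21583140-21584893, plus strand, exons 4 and 5).
Zfp9: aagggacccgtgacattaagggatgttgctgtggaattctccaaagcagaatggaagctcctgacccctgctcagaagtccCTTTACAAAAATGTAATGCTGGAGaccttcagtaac
Zfp568: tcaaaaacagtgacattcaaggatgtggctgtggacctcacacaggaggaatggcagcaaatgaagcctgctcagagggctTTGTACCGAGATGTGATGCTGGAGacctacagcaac
Zfp948: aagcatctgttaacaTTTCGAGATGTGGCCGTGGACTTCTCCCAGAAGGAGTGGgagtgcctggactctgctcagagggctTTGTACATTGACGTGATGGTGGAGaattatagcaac

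The first finger is shown for 4 members called in both sexes, of which Zfp9 and Zfp324 are A box members and Zfp422 and Zfp827 are not. Capitals mark the codons of the paired cysteines and histidines, which keep the same spacing in all 4, while most letters between them differ. In GRCm38 these stretches are chr6:118465283-118465345 on the minus strand (exon 6 of Zfp9), chr7:12970762-12970824 on the plus strand (exon 4 of Zfp324), chr6:116626806-116626868 on the minus strand (exon 2 of Zfp422) and chr8:79070403-79070465 on the plus strand (exon 3 of Zfp827).
Zfp9: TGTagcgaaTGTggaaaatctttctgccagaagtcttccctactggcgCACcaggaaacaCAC
Zfp324: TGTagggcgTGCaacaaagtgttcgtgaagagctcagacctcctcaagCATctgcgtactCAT
Zfp422: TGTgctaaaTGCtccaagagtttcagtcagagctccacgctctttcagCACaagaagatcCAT
Zfp827: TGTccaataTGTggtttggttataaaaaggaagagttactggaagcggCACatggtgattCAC

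The libraries held 19759712 to 56086810 assigned reads, and male control 2 was both the shallowest and the one with the fewest genes with reads (17701, against 22287 to 24269 in the others). No member was at 0 in any library. Rnf20 itself was at 1877, 2000.2 and 1927 normalized counts in female knockouts, against 3589, 4032 and 4339.6 in female controls, and at 1519, 1373 and 1436 in male knockouts, against 3812, 3409 and 4058 in male controls. It was 2.05-fold lower in females (adjusted p = 6.35e-04) and 2.60-fold lower in males (adjusted p = 7.91e-04). Beta cell marker genes took 11.3% to 11.7% of normalized counts in female knockouts and 12.9% to 18.2% in female controls, and 10.5% to 15.5% in male knockouts and 16.2% to 21.0% in male controls. In females 6 of the 8 beta cell markers fell and 1 rose, and in males 4 fell and 1 rose. Delta cell markers took 0.0788% to 0.0932% in female knockouts and 0.172% to 0.196% in female controls, and 0.0605% to 0.0964% in male knockouts and 0.141% to 0.211% in male controls, and both markers fell in both sexes. Acinar markers took 1.14% to 1.65% in female knockouts and 1.52% to 3.78% in female controls. In males they took 0.781% to 4.06% in knockouts and 0.346% to 5.08% in controls. Of the 11 acinar markers 0 were called in either sex. Endothelial markers took 0.0582% to 0.0736% in female knockouts and 0.0465% to 0.0558% in female controls. In males they took 0.0520% to 0.0670% in knockouts and 0.0354% to 0.0394% in controls. Of the 6 endothelial markers 4 rose in males and 0 were called in females. The 209 Zfp genes together took 0.713% to 0.737% of normalized counts in female knockouts and 0.576% to 0.716% in female controls, and 0.646% to 0.747% in male knockouts and 0.573% to 0.662% in male controls. The part of these cell marker shifts in the changes of the Zfp genes was not tested. In bulk RNA, fewer cells of a type and less RNA per cell cannot be told apart.

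In female islets, 28 Zfp genes were lower and 15 were higher in knockouts than in controls, 43 of 209 or 20.6%. A gene was called, and is said to have risen or fallen, when its adjusted p from limma was below 0.05 over all genes tested. The same rule called 20.6% of all 18142 genes tested in females (9.90% higher and 10.7% lower), and 27.1% of the 9717 protein-coding genes above the same level limit (11.9% higher and 15.2% lower). The members' share was thus near that of all genes and under that of genes of like level. Their median log2 fold change was -0.09 in females, against -0.01 over all genes tested and -0.02 over the protein-coding genes above the limit. In male islets 9 Zfp genes rose and 6 fell, 15 of 209 or 7.18%. The background in males was 13.2% of all 18010 genes tested (6.08% higher and 7.09% lower) and 21.0% of the protein-coding genes above the limit (9.54% higher and 11.5% lower). The median log2 fold change of the members in males was 0.07. It was 0.06 over all genes tested and 0.005 over the protein-coding genes above the limit. With edgeR the male median was 0.04 for the members and 0.004 over all genes tested.

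The female counts depended on single libraries. Members called numbered 17 when control 2 was left out, 21 for knockout 1, 16 for knockout 2 and 24 for knockout 3, with more falls than rises in each of these fits. Of the 43 female calls, 15 held whichever library was left out: Zfp9, Zfp324, Zfp330, Zfp422, Zfp568, Zfp612, Zfp667, Zfp715, Zfp719, Zfp764, Zfp948 and Zfp983 among the falls, and Zfp395, Zfp512 and Zfp592 among the rises. The other 28 were lost without at least 1 library. Besides the 15, the fit without control 2 called Zfp92 and Zfp950 and the fit without knockout 2 called Zfp950, so every other female call named here ended in both of these fits. In males the count was 9 when control 1 was left out, 9 for control 3, 2 for knockout 1 and 5 for knockout 3. It was 16 without the shallow control 2 (12 higher and 4 lower), of which 12 were among the 15. Zfp9 was the 1 male call that held in each of these. The shares of all genes called in fits that left out a library are not given here. Whether the members lost more calls than other genes was not tested.

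**Figure D1:**
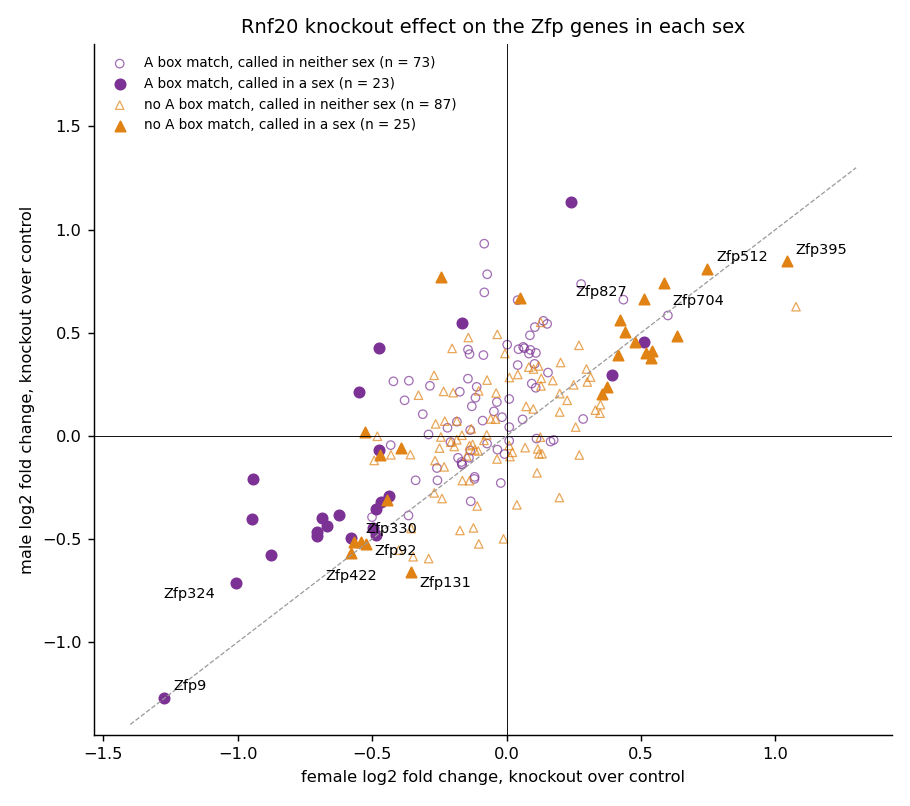
Log2 fold change of each Zfp gene, knockout over control, in females (horizontal axis) and males (vertical axis), for the 208 members with a translated protein. Circles are A box members and triangles the others; filled symbols passed the test in at least 1 sex, and the dashed line marks equal effects. The 10 labelled genes passed in both sexes and lie at the lower left and upper right, while the filled circles lie mostly left of 0.

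Zfp genes changed in the same direction in both sexes numbered 10, which is 23.3% of the female and 66.7% of the male calls. Over all genes tested in both sexes these shares were 41.5% and 64.8%. No member was called in opposite directions. Knockout and control libraries did not overlap in any of the 43 female and 15 male calls, so a lack of overlap adds nothing to a call. Of all 209 members, called or not, 90 had no overlap in females and 61 in males. The same count was not made over all genes, so these numbers show nothing particular to the members. The sign of the log2 fold change was shared between the sexes by 145 of the 209 members (69.4%, against 72.9% of all genes). Across the members, the female and male log2 fold changes had a Pearson r of 0.68 and a Spearman rho of 0.64, as a description across genes. Genes within a library are not independent, and the sexes share no library.

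Zfp9 (ENSMUSG00000072623), an A box member with 12 fingers on chromosome 6 (118438911 to 118456281, GRCm39), had the largest fall in both sexes. It was at 1007, 1007 and 989 normalized counts in female knockouts, against 2133, 2661 and 2502 in female controls. In males it was at 742, 643 and 1056 in knockouts, against 1616, 2243 and 1952 in controls. The groups stood wide apart in either sex. The limma fit gave a 2.42-fold fall in females (-1.27 on the log2 scale, SE 0.11, adjusted p = 4.26e-04) and a 2.41-fold fall in males (-1.27, SE 0.21, adjusted p = 0.00563), with 3 libraries in each group.

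Zfp324, an A box member of chromosome 7 (12699765 to 12708163), had 576, 488 and 548 normalized counts in female knockouts, against 937, 1175 and 1139 in female controls. In males it was at 509, 525 and 484 in knockouts, against 746, 854 and 901 in controls. The groups did not overlap in either sex. The fall was 2.01-fold in females (log2 difference -1.01, SE 0.13, adjusted p = 0.00194) and 1.64-fold in males (log2 difference -0.72, SE 0.16, adjusted p = 0.022). The male call was lost without control 3, knockout 1 or knockout 3.

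Zfp422, expressed in developing teeth, stands alone on chromosome 6 (116600977 to 116605960). Its level was 1301, 1272 and 1261 normalized counts in female knockouts, against 2075, 1897 and 1772 in female controls, and 1113, 1035 and 1169 in male knockouts, against 1589.5, 1914 and 1445 in male controls. It fell by 0.58 on the log2 scale in females (adjusted p = 0.00499) and by 0.57 in males (adjusted p = 0.0355). Zfp330, a nucleolar protein with no classical finger (chromosome 8, 83490236 to 83500789), had 2136, 2092 and 1954 in female knockouts, against 3199.7, 3076 and 2881 in female controls, and 1785, 1385 and 1726 in male knockouts, against 2460.1, 2058 and 2466 in male controls. It fell by 0.57 in females (adjusted p = 0.00428) and by 0.52 in males (adjusted p = 0.0478). Neither gene's groups overlapped in either sex, and each male call was lost in 5 of the 6 fits that left out 1 library, all but that without control 3 for Zfp422 and all but that without control 2 for Zfp330.

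Zfp92, a KRAB zinc finger gene of the X chromosome (72454702 to 72471991) known for expression in islets and binding to transposable elements of the SINE class, was lower by nearly the same amount in both sexes. It was at 1335, 1487 and 1645 normalized counts in female knockouts, against 2006, 2063 and 2353 in female controls, and at 1809.8, 1634 and 1481 in male knockouts, against 2020.2, 2565 and 2530.4 in male controls. The log2 fold change was -0.52 in females (SE 0.11, adjusted p = 0.0144) and -0.53 in males (SE 0.14, adjusted p = 0.0421). The female call was lost without knockout 1 or knockout 2, and the male call held in 1 of the 6 fits that left out a library, that without control 1. Zfp92 overlaps Gm26726 on the opposite strand, so with the strand setting not stated their reads cannot be told apart.

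Zfp131, a transcription factor with a BTB domain (chromosome 13, 120226723 to 120252425), was the remaining fall. It was at 1788, 1809 and 1851 normalized counts in female knockouts, against 2191, 2439 and 2352 in female controls, and at 1568, 1364 and 1234 in male knockouts, against 1959.5, 2451 and 2174 in male controls. It fell by 0.36 on the log2 scale in females (adjusted p = 0.0228) and by 0.66 in males (adjusted p = 0.0184), and the difference between the sexes was not called (0.30, adjusted p = 0.667). The female call held only without control 1 or control 3, the male call was lost without control 3 or knockout 3, and the gene overlaps Gm41077 on the opposite strand.

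Of the 4 rises shared by both sexes, Zfp395 (chromosome 14, 65595838 to 65636379), a DNA-binding protein first described at the huntingtin gene promoter, had the largest in either sex. It was at 1961, 2367 and 2581 normalized counts in female knockouts, against 952, 1091 and 1321 in female controls. In males it was at 2519, 2766 and 2527 in knockouts, against 1386, 1159.6 and 1879 in controls. Knockout and control libraries did not overlap in either sex. The rise was 2.06-fold in females (log2 difference 1.04, SE 0.15, adjusted p = 0.00305) and 1.80-fold in males (log2 difference 0.85, SE 0.18, adjusted p = 0.015). Zfp395 overlaps Gm48449 on the opposite strand.

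Zfp512, on chromosome 5 (31609775 to 31639098), had 1751, 2029 and 1802 normalized counts in female knockouts, against 1107, 1056 and 1158 in female controls, and 2108, 2125 and 1929 in male knockouts, against 1182, 989.9 and 1366 in male controls. The rise was 1.68-fold in females (log2 difference 0.75, SE 0.10, adjusted p = 0.00219) and 1.75-fold in males (log2 difference 0.81, SE 0.15, adjusted p = 0.00883). Zfp704 on chromosome 3 (9492080 to 9675145), a relative of the Zfp395 protein, was at 3189, 3787 and 3412 in female knockouts, against 1997, 2172 and 2815 in female controls, and at 4462, 3689 and 2979 in male knockouts, against 2131, 2201 and 2243 in male controls. Its log2 fold change was 0.58 in females (adjusted p = 0.0218) and 0.74 in males (adjusted p = 0.015).

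Zfp827, which brings the NuRD complex to telomeres that are maintained by recombination (chromosome 8, 79755066 to 79920395), had 1352, 1581 and 1632 normalized counts in female knockouts, against 1069.7, 992 and 1132 in female controls, and 1642, 1878 and 1629 in male knockouts, against 1056, 962 and 1246 in male controls. It rose by 0.51 on the log2 scale in females (adjusted p = 0.0146) and by 0.66 in males (adjusted p = 0.0191). The groups did not overlap for Zfp512, Zfp704 or Zfp827 in either sex. The male calls of Zfp395, Zfp512 and Zfp704 were lost without knockout 1, and that of Zfp827 without control 1, knockout 1 or knockout 2. The female calls of Zfp704 and Zfp827 were lost without control 2, knockout 2 or knockout 3. Zfp704 overlaps C030034L19Rik and Gm38001 on the opposite strand, and Zfp512 overlaps Gm43059 on its own strand.

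**Figure D2:**
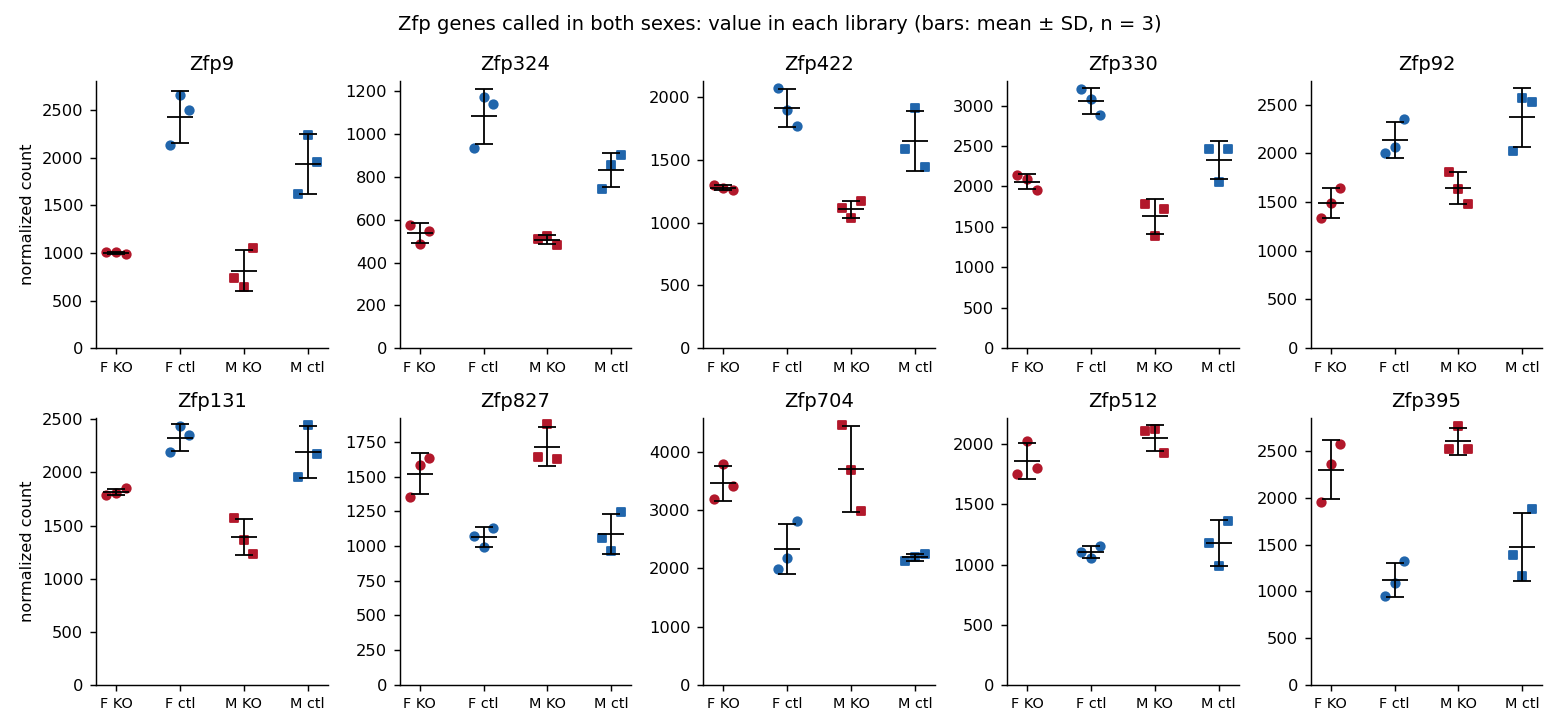
Normalized count (vertical axis, from 0) of the 10 Zfp genes called in both sexes, in each library. Points are libraries (F female, M male, KO knockout, ctl control), red for knockout and blue for control, and black bars give the mean ± SD of 3 libraries. In each panel the red points of a sex lie all below or all above its blue points, as was so for every called member.

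Among the other female falls, Zfp715, Zfp568 and Zfp948 were the largest, and all are A box members. Zfp715 was at 1137, 1062 and 1177 normalized counts in female knockouts, against 1724, 2461 and 2398 in female controls (log2 difference -0.95, SE 0.14, adjusted p = 0.00395). Zfp568, which in mice represses a placental transcript of Igf2, was at 1090.1, 1329 and 1548 in female knockouts, against 2195, 2760.1 and 2638 in female controls (log2 difference -0.94, SE 0.15, adjusted p = 0.00428). Zfp948 was at 816, 701 and 892 in female knockouts, against 1374, 1701 and 1357 in female controls (log2 difference -0.88, SE 0.13, adjusted p = 0.00395). In each of the 3 genes the highest female knockout library lay below the lowest female control. In males their log2 fold changes were -0.40 for Zfp715, -0.21 for Zfp568 and -0.58 for Zfp948 (adjusted p = 0.157, 0.601 and 0.0847).

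Zfp719, Zfp764, Zfp667, Zfp976, Zfp7 and Zfp954, all of them A box members, fell by 0.70, 0.70, 0.69, 0.67, 0.63 and 0.58 on the log2 scale in females (adjusted p between 0.00418 and 0.0154). Zfp764 and Zfp976 share 27.1% and 20.4% of their 50-base stretches with other transcripts, so their counts may be split with copies. Smaller A box falls were those of Zfp101, Zfp334, Zfp983, Zfp612, Zfp747, Zfp266, Zfp950 and Zfp809, between -0.55 and -0.44. The call of Zfp101 (adjusted p = 0.0493) ended with edgeR (adjusted p = 0.0584), under quantile scaling (0.0529) and with no filter on low values (0.0571). Zfp809, which silences proviral DNA in mouse embryonic cells, was at 777, 742 and 773 normalized counts in female knockouts, against 925, 1061 and 1134 in female controls. Zfp446, Zfp398, Zfp260, Zfp318 and Zfp516 fell in females without an A box match, and the calls of Zfp318 and Zfp516 ended under quantile scaling (adjusted p = 0.0617 and 0.0689).

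Female rises not called in males were those of Zfp467, Zfp592, Zfp217, Zfp362, Zfp688, Zfp609, Zfp346, Zfp444, Zfp316, Zfp710 and Zfp574, with log2 fold changes of 0.63, 0.54, 0.54, 0.52, 0.51, 0.48, 0.44, 0.41, 0.39, 0.37 and 0.36. All 11 were also above 0 in males, by 0.20 to 0.50. Zfp592, a partner of the chromatin reader Zmynd8, was at 3059, 3105 and 2777 normalized counts in female knockouts, against 2029, 1960.1 and 2151 in female controls (adjusted p = 0.00543). Zfp467, which promotes fat cell over bone cell fate in mouse marrow, was at 442, 593 and 638 in female knockouts, against 346, 362 and 357 in female controls (adjusted p = 0.0258). Zfp217, which joins corepressor complexes with CoREST and CtBP, was at 892, 844 and 883 in female knockouts, against 507, 574 and 745 in female controls (adjusted p = 0.0377). Each of these groups stood apart from its controls, and the nearest libraries were closest as a ratio in Zfp217 and as a difference in counts in Zfp467.

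Male calls not made in females were the 5 rises of Zfp799, Zfp407, Zfp526, Zfp652 and Zfp445. Zfp799, an A box member, was at 782, 530.2 and 1018 normalized counts in male knockouts, against 361, 289 and 379.6 in male controls (log2 difference 1.14, SE 0.26, adjusted p = 0.0214). Zfp445, which with Zfp57 maintains DNA methylation at imprinted genes, was at 5349, 4096 and 5589 in male knockouts, against 3289, 3862 and 3094 in male controls (log2 fold change 0.55, adjusted p = 0.0448). In females Zfp445 was at 4022, 4151 and 4169 in knockouts, against 4001, 4546 and 5399 in controls (log2 fold change -0.17, adjusted p = 0.367), and the groups overlapped. Zfp652, which binds the corepressor Cbfa2t3, had log2 fold changes of 0.56 in males (adjusted p = 0.0194) and 0.42 in females (adjusted p = 0.0508), and the gene overlaps several neighbours, Abi3 among them. It was at 4787, 3842 and 4515 normalized counts in male knockouts, against 2792, 2988 and 3090.1 in male controls. Zfp526 was at 763, 731 and 628 in male knockouts, against 409.6, 473 and 449 in male controls (log2 fold change 0.67, adjusted p = 0.0376). The male groups of Zfp799, Zfp445, Zfp652 and Zfp526 did not overlap. Each of these 5 calls was lost without knockout 1 and without knockout 3, and those of all but Zfp799 were also lost without at least 1 control.

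Whether the effect differed between the sexes was tested with a sex by genotype term in a fit to the 12 libraries together. It called 0 of the 209 members with limma and 0 with edgeR, and 21 had an unadjusted p below 0.05. Its background was 0.110% of 17330 genes, of which 1409 had an unadjusted p below 0.05 with limma. DESeq2 called 1 member, Zfp407, for which female minus male was -1.01 on the log2 scale (limma adjusted p = 0.214). Zfp407 was at 506, 571 and 507 normalized counts in female knockouts, against 523, 629.5 and 741 in female controls, and at 716, 619 and 837 in male knockouts, against 505, 415 and 357 in male controls. Its groups overlapped in females and not in males, where it rose by 0.77 (adjusted p = 0.0397). The median of female minus male was -0.14 over the members and -0.06 over all genes. Female minus male was below 0 in 147 of 209 members. The same was so for 9832 of all 17330 genes and 5263 of the 9717 protein-coding genes above the limit. These counts were not compared by a test.

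Rises and falls in females were split unevenly over the protein classes. Of the 96 A box members 19 fell and 2 rose, namely Zfp688 and Zfp316, and of the 112 members with no match 9 fell and 13 rose. These shares were 19.8% lower and 2.08% higher with the box, and 8.04% lower and 11.6% higher without it. The female background was 10.7% lower and 9.90% higher over all genes, and 15.2% lower and 11.9% higher over protein-coding genes above the limit, near which the rises without the box lay. The median log2 fold change in females was -0.13 with the box and -0.04 without. Of the 96 members 65 lay below 0, as did 60 of the 112 others. So did 9254 of all 18142 genes tested and 5102 of the 9717 protein-coding genes above the limit. In males 2 A box members rose and 2 fell, 7 of the others rose and 4 fell, and the medians were 0.08 and 0.05. The difference between the classes was not tested, because the pattern that defines them was set after fold changes had been seen. With the start of the box alone as the pattern, 15 fell and 2 rose in the class with it, and 13 fell and 13 rose in the class without.

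With each female library left out in turn, A box falls numbered 11 to 24 and rises 0 to 3, with 11 called without control 2, 12 without knockout 1 and 11 without knockout 2. Among the members without a match, 6 were called without control 2 (3 higher, 3 lower), 9 without knockout 1 (7 higher, 2 lower), 5 without knockout 2 (3 higher, 2 lower) and 8 without knockout 3 (3 higher, 5 lower). Without control 1, 13 of them rose and 20 fell. Under quantile scaling 16 rose and 7 fell. The level of the A box members relative to the mean of the female controls had a median of -0.23, -0.13 and -0.03 on the log2 scale in the 3 female knockout libraries and -0.12, 0.03 and 0.10 in the 3 controls. The groups overlapped, and knockout 3 lay above control 1.

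**Figure D3:**
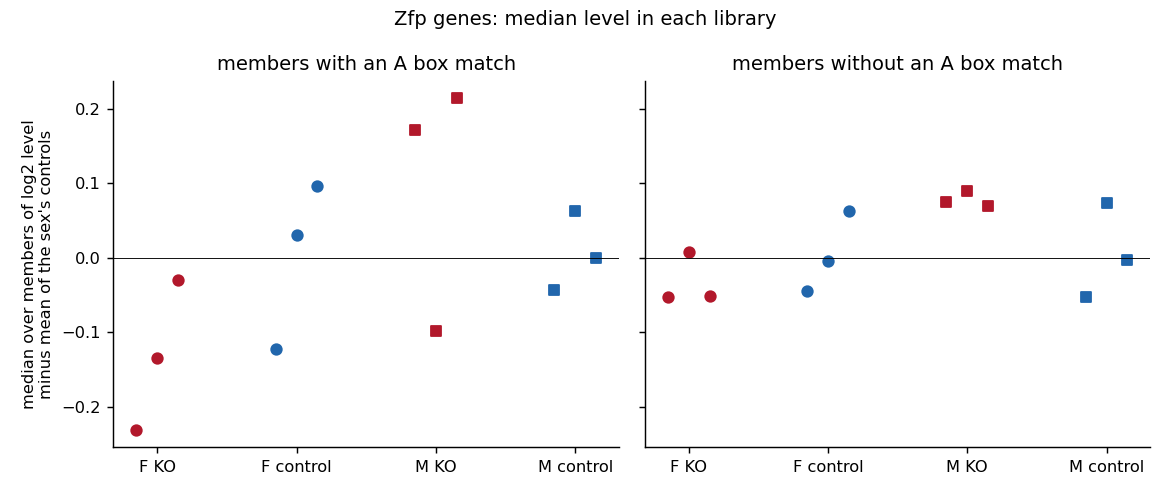
Median over the 96 A box members (left) and the 112 other members (right) of the log2 level in a library minus the mean of the controls of its sex. Points are libraries, red for knockout and blue for control, circles for females and squares for males. For the A box members 2 of the 3 female knockouts lie below all female controls and 1 lies among them. Of the 3 male knockouts 2 lie above all male controls, and knockout 2, at -0.10, lies below them all.

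**Figure D4:**
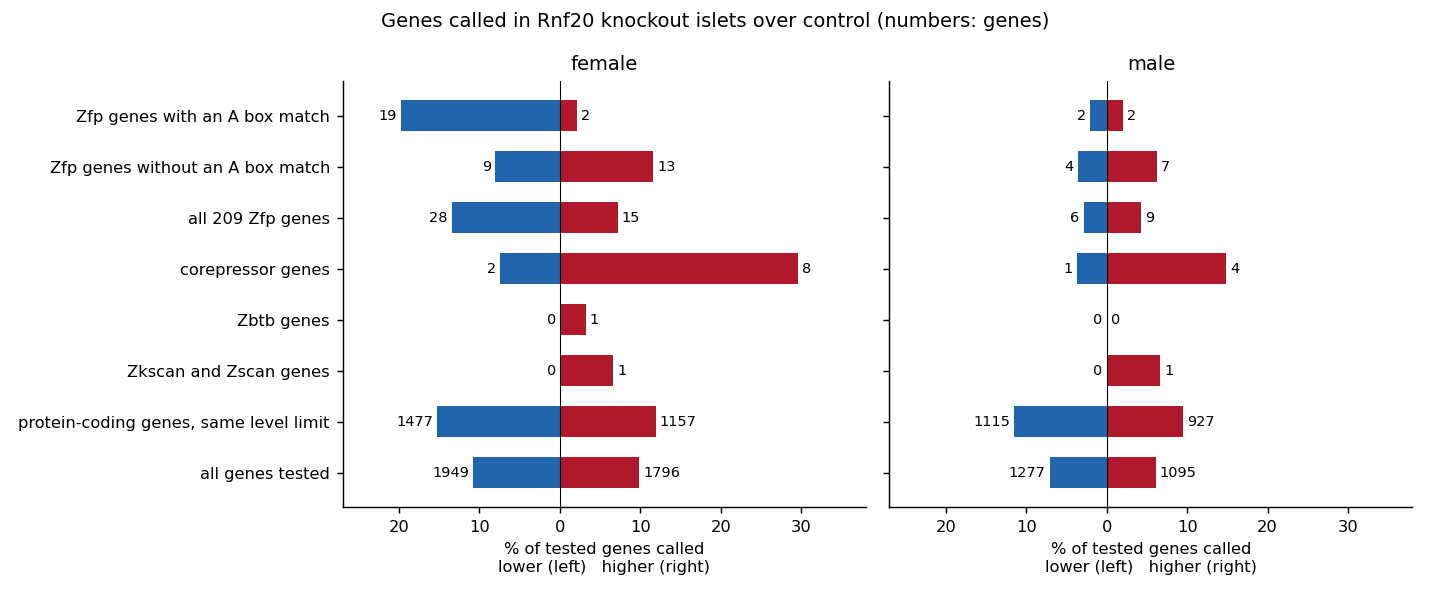
Percent of tested genes called lower (blue, left of 0) and higher (red, right of 0) in knockouts, in females (left panel) and males (right panel), with the number of genes at each bar. A box members had 19 falls and 2 rises in females; the lower rows give related gene families and all genes for scale.

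Positions were taken from the tables (GRCm39), and 3 or more members whose starts lie at most 1 Mb from the next were called a cluster. The 209 members lay on 20 chromosomes, 53 of them on chromosome 7. There were 19 clusters with 108 members, 14 pairs and 73 members alone. Clusters held 74 of the 96 A box members and 34 of the 112 others. Cluster members had 18 falls and 4 rises in females, and 1 fall and 2 rises in males. Paired members had 5 falls and 4 rises in females and 2 falls and 1 rise in males, and those alone had 5 falls and 7 rises in females and 3 falls and 6 rises in males. In females 20.4% of cluster members, 32.1% of paired members and 16.4% of those alone were called, against 20.6% of all genes and 27.1% of protein-coding genes above the limit, so the share in clusters was near that of all genes. In males the shares were 2.78%, 10.7% and 12.3%, against 13.2% and 21.0%.

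Falls in females were spread over 11 of the 19 clusters and were never shared by all members of one. The cluster with most falls spans 1960.0 kb of chromosome 7 (41282627 to 43242659) and holds Zfp788, Zfp141, Zfp976, Zfp975, Zfp715 and Zfp719. Its members Zfp976, Zfp715 and Zfp719 fell, with log2 fold changes of -0.67, -0.95 and -0.70, while Zfp788, Zfp141 and Zfp975 had -0.09, 0.09 and 0.08 and were not called. Zfp976 and Zfp975 are direct neighbours in this row. The 9 other genes tested within the span had a median of -0.44 in females and 0 were called. In males 0 of the 6 were called, with a median of -0.16.

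Zfp324 and Zfp446 are neighbours at the end of a cluster of 5 on chromosome 7 (12212220 to 12719641, with Zfp606, Zfp329 and Zfp110). Zfp446 was at 418, 498 and 521 normalized counts in female knockouts, against 651, 798 and 642 in female controls, a fall of 0.54 on the log2 scale (adjusted p = 0.0305). In males it was at 408, 545 and 474 in knockouts, against 668, 639 and 719.8 in controls, with a log2 fold change of -0.51 that was not called (adjusted p = 0.102). Zfp446 was the sole neighbour of Zfp324 called beside it, since Zfp606, Zfp329 and Zfp110 were called in neither sex. The 7 other genes tested in the span in females had a median of 0.00, and 0 were called.

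In 3 clusters, members were called in opposite directions in females. In the cluster on chromosome 6 (47812595 to 48422759), Zfp398 at one end fell (log2 fold change -0.53) and Zfp467 at the other rose (0.63), with Zfp282, Zfp212, Zfp956, Zfp777 and Zfp746 between them not called. On chromosome 7 (6134490 to 7124487), Zfp444 rose (0.41) and Zfp667 and Zfp954 fell (-0.69 and -0.58), beside Zfp787 and Zfp28. On chromosome 7 (126832233 to 127485168), Zfp688 rose (0.51) and its neighbours Zfp747 and Zfp764 fell (-0.47 and -0.70), beside Zfp553, Zfp771, Zfp768, Zfp629, Zfp668 and Zfp646. Zfp747 shares 34.4% of its 50-base stretches with other transcripts.

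Elsewhere on chromosome 7, Zfp568 and Zfp260 fell in the row of Zfp84, Zfp790, Zfp420, Zfp27, Zfp74, Zfp568, Zfp260 and Zfp146, with log2 fold changes of -0.94 and -0.47 in females. Zfp574 and its neighbour Zfp526 lie together with Zfp180, Zfp235, Zfp111 and Zfp61: Zfp574 rose in females (0.36) and Zfp526 in males (0.67). The row of Zfp60, Zfp626, Zfp59, Zfp974 and Zfp36 and that of Zfp628, Zfp579 and Zfp865 had 0 calls in either sex.

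The largest cluster holds 16 members on chromosome 17 (21229165 to 23818461): Zfp160, Zfp51, Zfp52, Zfp948, Zfp983, Zfp760, Zfp942, Zfp943, Zfp994, Zfp944, Zfp758, Zfp946, Zfp945, Zfp40, Zfp213 and Zfp13. The neighbours Zfp948 and Zfp983 fell in females (-0.88 and -0.49), and 12 of the 16 lay below 0 in females and 8 in males. A second cluster on chromosome 17 (32984470 to 33850753) holds Zfp871, Zfp799, Zfp952, Zfp763, Zfp563, Zfp81, Zfp101 and Zfp414. There Zfp101 fell in females and Zfp799 rose in males, and the male median of 0.43 had all 8 members above 0. The 9 other genes tested within that span in males had a median of 0.59, and 3 of them rose.

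Single falls in females came from Zfp7 on chromosome 15 (beside Zfp623, Zfp707 and Zfp251), Zfp266 on chromosome 9 (beside Zfp317, Zfp560, Zfp26, Zfp426 and Zfp846) and Zfp809, also on chromosome 9 (beside Zfp653 and Zfp810). No member was called in the rows of Zfp87, Zfp748, Zfp738 and Zfp65 on chromosome 13, Zfp397, Zfp35 and Zfp24 on chromosome 18, Zfp113, Zfp157 and Zfp68 on chromosome 5, or Zfp930, Zfp868, Zfp869 and Zfp866 and Zfp709, Zfp617 and Zfp961 on chromosome 8.

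**Figure D5:**
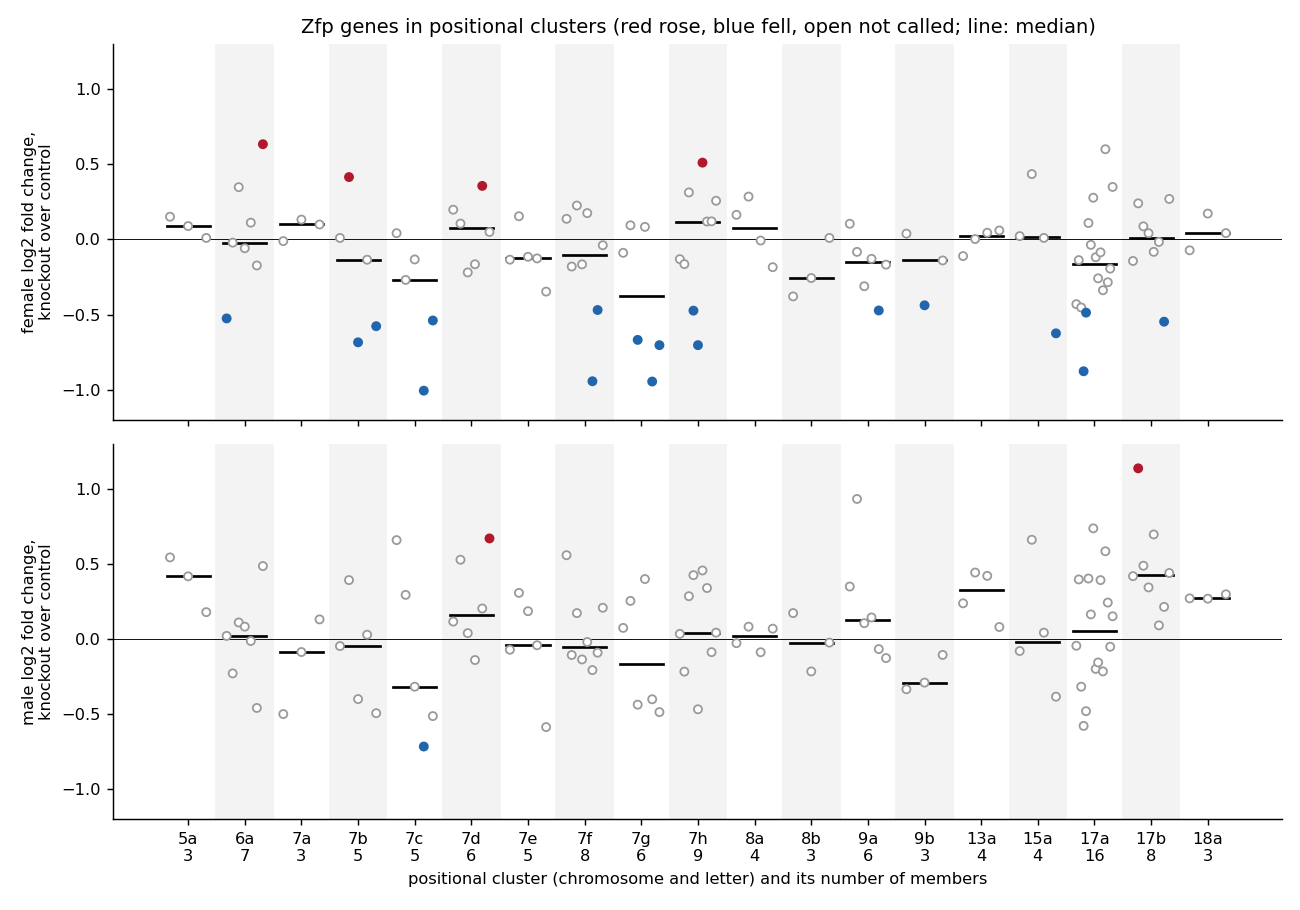
Log2 fold change of the Zfp genes in the 19 positional clusters, females above and males below, with clusters named by chromosome and a letter and the number of members under each. Each point is a gene in order of position, red where it rose, blue where it fell and open where it was not called, and black lines are cluster medians; blue points in females sit beside open ones in every cluster that has any.

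Promoter windows of 300 bases, 250 before and 50 after the annotated start, were given by RefSeq (GRCm38.p6) for 172 members, in 211 windows. They held a median of 17 CG dinucleotides, against 7 over all 32851 windows, and the A box members 12 against 22 for the members without a match. The ETS core CCGGAAG, searched on both strands, was present in 21.8% of member windows and 8.86% of all windows. The same shares were 11.8% and 4.05% for ATGGCGG, the core bound by YY1, and 51.7% and 35.7% for the GC box GGGCGG. They were 6.64% and 2.71% for GCATGCGC, bound by NRF1, 4.74% and 3.24% for ACTACAA, the start of the site bound by Zfp143, and 2.84% and 1.79% for the palindrome TGACGTCA. Among the members that fell in females, 2 of 25 windows held the ETS core and 10 held a GC box, and among those that rose the counts were 3 and 9 of 12 windows. The windows of all genes were not held to protein-coding genes or to a level, unlike those of the members. Most of these motifs contain CG, and the part of CG content in the shares was not tested. A match is a description of letters and not a bound site.

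Promoter windows are shown for 3 members called in both sexes, Zfp324 and Zfp330 among the falls and Zfp512 among the rises, with matches to these motifs in capitals. They lie at chr7:12965588-12965887 on the plus strand, chr8:82774096-82774395 on the minus strand and chr5:31452186-31452485 on the plus strand (GRCm38.p6). Zfp324 and Zfp330 each held the ETS core, as CTTCCGG, 14 and 95 bases before the start. Zfp324 also held the YY1 core, as CCGCCAT, 127 bases before it, and Zfp330 and Zfp512 each held a GC box, 64 and 94 bases before it.
Zfp324: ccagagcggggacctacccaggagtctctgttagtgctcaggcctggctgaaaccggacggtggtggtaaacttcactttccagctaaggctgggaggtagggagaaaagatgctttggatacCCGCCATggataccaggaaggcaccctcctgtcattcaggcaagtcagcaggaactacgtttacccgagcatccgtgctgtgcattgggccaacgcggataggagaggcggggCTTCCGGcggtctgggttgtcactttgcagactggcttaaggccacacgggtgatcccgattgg
Zfp330: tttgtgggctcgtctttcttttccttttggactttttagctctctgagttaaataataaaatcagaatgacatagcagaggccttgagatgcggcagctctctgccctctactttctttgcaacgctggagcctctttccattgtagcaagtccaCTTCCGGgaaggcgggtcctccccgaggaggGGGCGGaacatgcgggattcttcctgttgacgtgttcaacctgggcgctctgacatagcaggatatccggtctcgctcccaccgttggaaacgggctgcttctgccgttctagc
Zfp512: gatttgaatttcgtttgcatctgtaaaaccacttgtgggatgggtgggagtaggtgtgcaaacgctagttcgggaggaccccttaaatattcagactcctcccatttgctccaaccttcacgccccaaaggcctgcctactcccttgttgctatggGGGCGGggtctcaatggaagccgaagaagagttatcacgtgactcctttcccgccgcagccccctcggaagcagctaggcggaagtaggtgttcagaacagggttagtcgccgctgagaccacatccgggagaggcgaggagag

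Genes for Trim28, its partners and other heterochromatin and DNA methylation factors were read from a list of 28, of which 27 were tested. It is called the corepressor list, though not every gene on it is known to act with KRAB proteins. In females 8 rose and 2 fell, and in males 4 rose and 1 fell, 37.0% and 18.5% of the tested list. Of all genes tested 20.6% were called in females and 13.2% in males, and of protein-coding genes above the level limit 27.1% and 21.0%. The female share of the list lay above both backgrounds and the male share between them. The list was not held to the level limit, and Uhrf1 and Suv39h2 lay under it. These differences were not tested, and the list was chosen with earlier results of these data known. Trim28 itself, which binds the KRAB domain, had log2 fold changes of 0.00 in females and -0.19 in males (adjusted p = 0.99 and 0.487), and Setdb1 of 0.17 and 0.31 (adjusted p = 0.226 and 0.117). Chd4, the remodeller of the NuRD complex, was at 15259, 16899.6 and 15963 normalized counts in female knockouts, against 12092, 11109 and 11942 in female controls, and at 20114, 19924 and 20189 in male knockouts, against 12457, 11713 and 12152 in male controls. It rose by 0.45 on the log2 scale in females (adjusted p = 0.00983) and by 0.73 in males (adjusted p = 0.00373).

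Atf7ip, a partner that stabilises Setdb1, rose by 0.72 in females and 0.86 in males, and Cbx5, a heterochromatin protein, by 0.41 and 0.56. Rbbp7, Mta1, Mta3, Pphln1 and Suv39h1 were called in females but not in males, with rises of 0.53, 0.48, 0.40, 0.40 and 0.40, and Atrx in males but not in females, with 0.83. The sex by genotype term was called for 0 of the 27 with limma, where 4 had an unadjusted p below 0.05, against 1409 of all 17330 genes. Dnmt1, the maintenance DNA methyltransferase, was at 1593, 1615 and 1584 in female knockouts, against 3128, 2958 and 3272 in female controls, and at 1358, 1495 and 1537 in male knockouts, against 2470.3, 3694 and 2407 in male controls. It fell by 0.96 in females (adjusted p = 4.93e-04) and by 0.94 in males (adjusted p = 0.00949). Suv39h2 fell in females by 1.14, at a level of 47.0 to 72.5 normalized counts in knockouts and 90.1 to 162 in controls. The female count of 10 became 3 when control 2 was left out, 6 for knockout 1, 2 for knockout 2 and 5 for knockout 3, and the male count of 5 became 2 for knockout 1.

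Of the 9 members on the list of roles in RNA rather than DNA binding, 1 was called in females (11.1%) and 0 in males. Of all genes tested 20.6% were called in females and 13.2% in males, and of protein-coding genes above the limit 27.1% and 21.0%. In males 5 of the 9 had an unadjusted p below 0.05 with limma. So had 5082 of all 18010 genes tested and 3846 of the 9717 protein-coding genes above the limit. Zfp346, a protein that binds double-stranded RNA, rose in females, at 1121, 1108 and 1224 normalized counts in knockouts, against 831, 792 and 923 in controls (log2 fold change 0.44, adjusted p = 0.0215). Zfp36, which directs decay of AU-rich messenger RNAs, had log2 fold changes of -0.35 in females and -0.59 in males (adjusted p = 0.14 and 0.0968). Zfp598, the ligase that marks collided ribosomes, had -0.10 and -0.52 (adjusted p = 0.489 and 0.0627), and Zfp622, a factor in maturation of the large ribosomal subunit, had -0.35 and -0.45 (adjusted p = 0.142 and 0.101). The RNA-binding proteins Zfp638 and Zfp106 had 0.13 and -0.04 in females and 0.55 and 0.08 in males. Zfp207, a spindle protein that binds Bub3, had -0.26 in females and 0.06 in males. Zfp326, of a complex that links elongation to splicing, had 0.08 and 0.33, and the splicing-related Zfp830 had -0.23 and 0.07.

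Of the 20 members on the list of roles in transcription and chromatin, 2 rose and 4 fell in females, and 1 rose and 1 fell in males. These are 30% in females, against 20.6% of all genes and 27.1% of protein-coding genes above the limit, and 10% in males, against 13.2% and 21.0%. Zfp609, a partner of the cohesin loader Nipbl and of Integrator, was at 2249, 2279 and 2347 normalized counts in female knockouts, against 1397, 1700.1 and 1880.3 in female controls (log2 fold change 0.48, adjusted p = 0.0259). Zfp516, which activates Ucp1 in brown fat, was at 3406, 3669.5 and 3826 in female knockouts, against 4076, 5179 and 5136 in female controls (log2 fold change -0.39, adjusted p = 0.0461). Zfp318, which in B cells allows IgD to be made, was at 1016, 1028 and 1109 in female knockouts, against 1194, 1504 and 1633 in female controls (log2 fold change -0.45, adjusted p = 0.0445). With Zfp217, Zfp131 and Zfp809 above, these are the 6 female calls.

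The other 14 were not called in females: Zfp91, Zfp143, Zfp148, Zfp219, Zfp281, Zfp292, Zfp335, Zfp384, Zfp445, Zfp462, Zfp503, Zfp608, Zfp687 and Zfp703. Their female log2 fold changes lay between -0.36, for Zfp281, and 0.13. Zfp143, which binds promoters of small nuclear RNA and many messenger RNA genes, had 0.07 in females and 0.14 in males. Zfp687, a Zmynd8 partner like Zfp592, had 0.13 and 0.24.

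By mean level, Zfp106 was highest, with 7831 normalized counts in females and 7633 in males, followed by Zfp664 (6557 and 6137), Zfp207 (5671 and 5138), Zfp516 (4215 and 5083) and Zfp706 (4819 and 4325). None of Zfp106, Zfp664, Zfp207 and Zfp706 was called in either sex. The lowest were Zfp560, Zfp941, Zfp101, Zfp668 and Zfp763, with 319 to 335 in females and 302 to 352 in males. Per kilobase of annotated exon, so that genes can be compared, the members had a median of 197 normalized counts in female controls, 168 with the A box and 204 without it. Zfp869 (1838 per kb), Zfp598 (1143) and Zfp207 (929.6) were highest on that scale and Zfp846 (31.9) lowest.

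Related families were read at the same level limit, where 27.1% of protein-coding genes were called in females and 21.0% in males, and no difference between families was tested. Of 31 Zbtb genes, whose proteins pair a BTB domain with fingers, 1 rose in females (Zbtb22, log2 fold change 0.42) and 0 were called in males. In males 4 of them had an unadjusted p below 0.05 with limma, against 3846 of the 9717 protein-coding genes above the limit. Of 15 Zkscan and Zscan genes, whose proteins carry a SCAN domain, Zkscan14 rose in females (0.55) and Zkscan3 rose in males (0.46).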

How the data were processed

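RNA was sequenced from 12 islet libraries, 3 in each of 4 groups. The submitters' processing notes name FastQC 0.11.9, Trim Galore 0.6.7, featureCounts, the STAR aligner in version 2.7.3a and the builds GRCm39 and mm39. The strand setting is not given in the sources used here. The authors deposited 1 table per sex of read counts divided by a DESeq2 size factor per library, per the file headers, and these normalized counts are the signal used here. In every library 100% of the values were whole multiples of 1 read (tolerance 0.001), so reads were recovered for the count tests.

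Each sex was fitted on log2(normalized count + 1) over genes with a mean of at least 10, with limma 3.58.1 (trend and robust) in R 4.3.3 and Benjamini-Hochberg adjustment over all genes tested. Every adjusted p in the text comes from that fit unless another tool is named. Fold changes are on that log2 scale. The alternatives were edgeR 4.0.16 and DESeq2 1.42.0 on recovered reads, a pseudocount of 5, quantile scaling, no filter, the replicate number as a block, each library left out, and level limits of 100 and 600. The fits were tested on simulated data. The labels do not say that libraries come from separate mice, so p-values measure the spread between libraries, which may be technical.

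The genes described, the clusters, the role lists and the corepressor list were chosen with earlier results of these data known. Called genes were named by a rule of size of change, along with every gene called in both sexes. Fingers and the A box were found by pattern in proteins translated from GENCODE M21 transcripts (GRCm38), since no RefSeq protein table was used. The A box pattern first written down matched 0 of 208 proteins, and it was replaced, after fold changes had been seen, by a pattern for either end of the box. Coordinates of genes and clusters are those of the tables (GRCm39), and those of sequences are GRCm38. Shared sequence is the percent of 50-base stretches of a gene's transcripts that occur in transcripts of another gene.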

Additional observations from a re-analysis of the deposited data

How the results depend on the processing

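The female count of 43 called Zfp genes was 43 with edgeR (42 of them shared), 55 with DESeq2, 44 under quantile scaling and 38 with no filter, and the male count of 15 was 15, 24, 17 and 12. DESeq2 called 1 gene for the sex difference and 9 A box members in males, where the start of the box alone gave 2. With each library left out, the count was 16 to 60 in females and 2 to 16 in males; for A box members it was 11 to 27 and 1 to 7, for the others 5 to 33 and 1 to 12, and for the corepressor list 2 to 9 and 2 to 7. At a level limit of 100 the counts were 50 and 15 of 279 members, and at 600 they were 34 and 12 of 136 members. The share of members called was thus larger at the limit of 600 than at 100 in both sexes, though the counts were smaller. The shares of all genes called at these limits are not given here. The medians over all members together kept their sign in every alternative run, whereas the female median of members without an A box match, -0.037, was 0.0087 without control 3. With no filter the calls of Zfp101, Zfp316, Zfp444, Zfp574 and Zfp710 in females and of Zfp330, Zfp526 and Zfp92 in males ended (adjusted p 0.0508 to 0.0582).

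The sexes and groups share replicate numbers in the labels, but same-numbered libraries did not deviate together (correlations -0.04, -0.28 and -0.13 in females and 0.12, 0.01 and 0.15 in males), so the numbers do not show a pairing. With the replicate number as a block, 36 members were called in females (9 higher, 27 lower), 12 in males and 0 for the sex difference; the corepressor counts were 10 (6 higher, 4 lower, 8 of the 10 calls kept) and 5 (4 of the 5 kept). The block ended the calls of Zfp101, Zfp217, Zfp316, Zfp362, Zfp444, Zfp574, Zfp688, Zfp710 and Zfp747 in females and of Zfp407, Zfp422, Zfp445, Zfp526 and Zfp92 in males (adjusted p 0.0504 to 0.0814).

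Small log2 fold changes turned over in some fits, none of them called, and the cause was not tested. Under quantile scaling Zfp106 was 0.044 and Zfp292 was 0.022 in females. Zfp503 was -0.012 with edgeR and -0.00970 with DESeq2 in females, and Zfp608 was -0.00479 with edgeR in males. With single libraries left out, the log2 fold change in females lay for Zfp106 between -0.14 and 0.044, Zfp148 between -0.011 and 0.19, Zfp292 between -0.22 and 0.10, Zfp326 between -0.033 and 0.16, Zfp462 between -0.25 and 0.015, Zfp503 between -0.22 and 0.16, Zfp526 between -0.093 and 0.14 and Zfp608 between -0.20 and 0.047. In males it lay for Zfp106 between -0.083 and 0.29, Zfp207 between -0.15 and 0.25, Zfp260 between -0.26 and 0.11, Zfp266 between -0.19 and 0.15, Zfp281 between -0.20 and 0.049, Zfp398 between -0.11 and 0.17, Zfp516 between -0.28 and 0.14, Zfp568 between -0.44 and 0.056, Zfp608 between -0.11 and 0.10, Zfp830 between -0.0980 and 0.16 and Zfp91 between -0.18 and 0.095.

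Limits: 3 libraries per group, a shallow male control, and unstated strand counting bound what these values can show, and low members rest on few reads in that library.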

Other observations

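The protein-coding Zfp genes under the level limit numbered 140, of which 125 were tested in females and 122 in males. In females 6 rose and 6 fell, and in males 0 were called with limma, where 15 had an unadjusted p below 0.05. Of all 18010 genes tested in males, 5082 had such a p. The calls were 9.60% of those tested in females and 0% in males, against 20.6% and 13.2% of all genes tested. Those backgrounds include the protein-coding genes above the limit, of which 27.1% and 21.0% were called. A background of genes under the limit was not computed. The median log2 fold change of these Zfp genes was 0.02 in females and 0.17 in males.

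Some members differed by a large factor on average and were not called. Zfp365, which lacks a classical finger match, was at 959, 2480.3 and 677 normalized counts in female knockouts, against 317, 586 and 921 in female controls, with a log2 fold change of 1.08 that was not called (limma adjusted p = 0.257). Zfp560 was at 467, 303 and 351 in male knockouts, against 278, 75.8 and 335 in male controls, and the low value belongs to the shallow male control 2. Zfp182, an A box member of the X chromosome, was at 719, 482 and 747 in male knockouts, against 431, 279 and 421 in male controls (log2 fold change 0.78, limma adjusted p = 0.0766), with no overlap between the male groups, and its female log2 fold change was -0.07.

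Zfp945, an A box member of the large chromosome 17 cluster, had log2 fold changes of 0.60 in females and 0.58 in males and was called in neither sex (limma adjusted p = 0.0821 and 0.0887), whereas Zfp948 and Zfp983 of the same cluster fell in females.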
